A study of Mus musculus with 310 samples.

Results

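Serpinb3b, Serpinb5, Serpinb6a, Serpinb7 and Serpinb11 are 5 clade B serpins of mouse tail epidermis, described here in single keratinocytes. They were chosen by name from the table of raw counts with earlier results of the same cells known, and they are 5 of the 15 clade B serpins among the 14068 genes of that table. A further 13 of the 28 mouse clade B serpins looked for were not analysed here. The study sorted tdTomato+ epidermal cells from female mice with an Lrig1-EGFP-ires-CreERT2 driver and a Rosa26-fl/STOP/fl-tdTomato reporter, on a CBA C57BL/6 mixed background, and sequenced each cell by Smart-seq2, a full-length method without molecular identifiers. All groups carry both alleles and had 1 topical dose of hydroxytamoxifen on the tail, so the sorted cells should descend from a cell that expressed Lrig1, which in the resting follicle marks the junctional zone. The aged set compares repaired tail skin with age-matched control skin: 145 cells labelled 38w came from replicates RepI and RepL, and 165 cells labelled 38wUW came from RepM and RepN, all at 38 weeks. The labels used here do not spell out what 38wUW stands for, so differences are given as 38w against 38wUW. Each group has 2 replicates, and cells of 1 replicate share their source and were never counted as replicates.

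Clade B serpins are intracellular members of the serpin superfamily. An inhibitory serpin offers an exposed reactive loop to a protease, is cut there, and traps the enzyme in a covalent complex. In stratified epithelium the family sits beside the kallikreins and cathepsins that process filaggrin, desmosomes and lysosomal cargo. Serpinb5 (maspin) is the exception among the members, since it does not inhibit proteases by this mechanism and is best known as an epithelial marker with roles in adhesion and migration. Serpinb7 (megsin) is the mouse counterpart of the human gene whose loss of function causes Nagashima-type palmoplantar keratosis, a disorder of the skin barrier. Serpinb3b belongs to the mouse relatives of the human squamous cell carcinoma antigens, which inhibit serine and cysteine proteases, and Serpinb6a is the mouse relative of human proteinase inhibitor 6, an inhibitor of trypsin-like proteases and cathepsin G.

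In GRCm38, Serpinb5 (chr1:106861173-106883348, plus strand), Serpinb3b (chr1:107153940-107278361, minus strand), Serpinb11 (chr1:107361198-107380475, plus strand) and Serpinb7 (chr1:107399655-107452689, plus strand) lie in 1 cluster on chromosome 1. Serpinb6a lies apart from them, on chromosome 13 (chr13:33917918-34002794, minus strand). Serpinb3b has close copies beside it, so its reads could in principle be shared. The first 60 coding bases of the 4 annotated Serpinb3 genes are shown. Of all gap-free windows of this length in their alignment, this one had the most differences from Serpinb3b, summed over the copies. It therefore shows the copies further apart than their coding sequences are as a whole. Each is written on its coding strand from the start codon, and capitals mark the bases that differ from Serpinb3b. The windows lie in exon 2 of Serpinb3b (chr1:107159718-107159777) and of Serpinb3c (chr1:107276955-107277014), and in exon 1 of Serpinb3a (chr1:107051711-107051770) and of Serpinb3d (chr1:107083421-107083480), counted on the GENCODE models used here.
Serpinb3b: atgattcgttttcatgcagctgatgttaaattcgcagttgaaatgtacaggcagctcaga
Serpinb3c: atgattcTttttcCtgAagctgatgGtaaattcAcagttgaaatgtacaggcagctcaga
Serpinb3a: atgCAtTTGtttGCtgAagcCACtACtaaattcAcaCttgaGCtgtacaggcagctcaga
Serpinb3d: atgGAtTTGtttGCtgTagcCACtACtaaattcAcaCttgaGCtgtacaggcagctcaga
Serpinb3c differs from Serpinb3b at 5 of these bases, and Serpinb3a and Serpinb3d differ at 17 each. Over the whole coding sequence, identity to Serpinb3b was 93.4% for Serpinb3c, 92.7% for Serpinb3a and 86.9% for Serpinb3d. Reads were 75 bases long, and 1 transcript per gene was scanned, the one with the longest coding sequence. Of the 75-base stretches of that Serpinb3b transcript 2.28% were found letter for letter in another gene, most of them in Serpinb3c. Other transcripts of the same gene were not scanned. For Serpinb6a the share was 6.78%, all with 1110046J04Rik, and for Serpinb5, Serpinb7 and Serpinb11 it was 0. The annotated span of Serpinb3b also contains most of Serpinb3c on the same strand, so the values of those 2 genes carry some uncertainty.

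The libraries held 11711 to 721564 reads per cell (median 61294) in 1996 to 5840 genes. Plate C114, which gave 53 of the 70 RepI cells, stood apart: its median cell had 31.8% of reads in ribosomal protein genes and 2.77% in mitochondrial genes, against 3.604% to 6.80% and 9.69% to 33.8% on the other plates. On C114, 11 wells appear under 2 sample names, 1 of them with an added suffix. The paired columns correlated at a median Spearman rho of 0.50 across genes, against 0.37 for the other 1367 pairs of cells of that plate, and 8 of the 11 lay above the 95th percentile of those pairs, so they may not be separate cells. The 15 cells with a suffix (14 of them 38w) were kept in the main values, and values without them are given where they bear on a result. The suffixes, IDTILL on plate C114 and MBULK on C119 and C129, are not explained by the labels. The study also made mini-bulk libraries of sorted cells, so the MBULK columns may not be single cells. All 310 cells had reads of at least 3 of 11 keratinocyte markers. Reads of at least 3 of 5 fibroblast markers were found in 2 cells, and no cell had reads of all 3 melanocyte or all 3 immune markers measured. Any fibroblast marker had a read in 97 cells, any melanocyte marker in 111 and any immune marker in 33. Few markers were measured, so asking for all of them is a strict bar and a weak check of the label keratinocyte. Of the endothelial markers, Kdr had reads in 8 cells and Pecam1 in all 310, so Pecam1 marked no subset.

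Levels below are in CPM, the summed reads of a gene per 1000000 summed reads of all genes in the cells named. Over all 310 cells Serpinb5 was the highest member at 1049 CPM, followed by Serpinb6a at 181, Serpinb11 at 122, Serpinb7 at 83.0 and Serpinb3b at 72.1. Per kilobase of transcript the order was nearly the same, with 393 CPM per kb for Serpinb5, 120 for Serpinb6a, 58.3 for Serpinb11, 44.0 for Serpinb7 and 43.6 for Serpinb3b, the last pair being too close to order. The members also differed in how many cells carried them. Reads of Serpinb5 were found in 283 of 310 cells, of Serpinb6a in 186, of Serpinb3b in 77, of Serpinb11 in 60 and of Serpinb7 in 42. The 3 cells with the most reads held 13.9% of all Serpinb5 reads but 43.2% of the Serpinb7 reads and 46.0% of the Serpinb11 reads. Among cells with a read, the median level was 560 CPM for Serpinb5, 276 for Serpinb11, 268 for Serpinb7, 143 for Serpinb3b and 134 for Serpinb6a. Serpinb5 and Serpinb6a were thus found in 60% of the cells or more, and Serpinb3b, Serpinb7 and Serpinb11 in 24.8% or fewer.

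To place the members, each cell was given the class whose marker genes scored highest, with no serpin among the markers. Classes are ranges of a score and not types: 94 cells were basal-like, 55 interfollicular differentiated-like, 65 infundibular and duct differentiated-like, 33 sebocyte-like, 57 bulge-like and 6 unassigned, and 24 cells led the next class by under 0.1. Reads were summed per replicate and class where a replicate had at least 5 cells, and each class was compared with the mean of the other classes by edgeR's quasi-likelihood test with the replicate as a block, adjusted over 10384 genes by the Benjamini-Hochberg method. Of the 25 tests of a member in a class, 7 passed an adjusted p of 0.05, 6 of them higher and 1 lower. The share of all genes that passed was 1.06% for basal-like, 1.55% for interfollicular differentiated-like, 6.07% for infundibular and duct differentiated-like, 1.08% for sebocyte-like and 0.828% for bulge-like cells. These members were picked with results of the same cells in view, so their share cannot be read against that background as a result about the family.

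**Figure D1:**
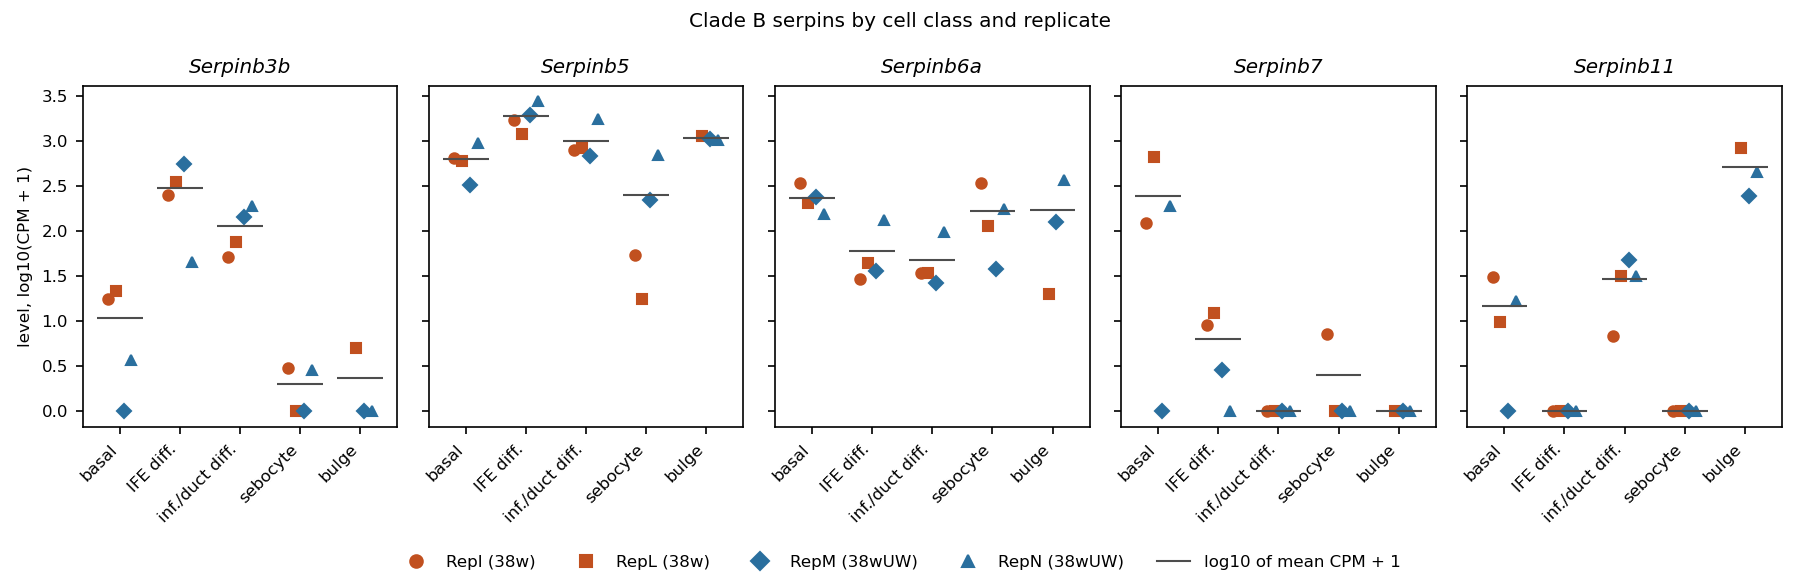
Level of each member by cell class, as log10 of CPM plus 1 (vertical axis), with 1 point per replicate that had at least 5 cells of the class and a line at the mean. Serpinb7 was high in basal-like cells of RepI, RepL and RepN but listed at 0 in RepM, Serpinb11 was high in bulge-like cells, and Serpinb3b was high in both differentiated classes.

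Serpinb7 was the member most tied to basal-like cells, the class marked by Krt14, Krt5, Itga6 and hemidesmosome genes. Of the 42 cells with a Serpinb7 read, 36 were basal-like, 5 interfollicular differentiated-like and 1 sebocyte-like. In basal-like cells RepI had 122 CPM, RepL 663, RepN 188 and RepM 0, a mean of 243 ± 290 CPM (SD, n = 4) against 2.31 ± 2.55 CPM in the other cells of the same replicates. RepL was highest, and RepM stood alone in having no Serpinb7 read in its 20 basal-like cells, which by a limit of 3 counts allows a share of up to 15%. The edgeR quasi-likelihood test gave an adjusted p of 0.00227 for basal-like cells, and the gene was higher than in other cells in 3 of 4 replicates. Without RepL the call was lost (adjusted p = 0.0992). No read was found in 65 infundibular and duct differentiated-like cells, which by the same limit of 3 counts allows a share of up to 4.62%, nor in 57 bulge-like cells, which allows up to 5.26%. The 95% Wilson upper limits are slightly wider, at 5.58% and 6.31%.

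Of the 5 members, Serpinb7 also had the largest ratio between the groups. Over all cells RepI had 56.6 CPM and RepL 331, against 0.183 for RepM and 27.0 for RepN. Both 38w replicates were above both 38wUW replicates, with means of 194 ± 194 and 13.6 ± 18.9 CPM (SD, n = 2 each), a ratio of 14.3. Replicate levels did not overlap between the groups for 38.8% of all genes tested. The labels hold a batch tag and an alternative one that disagree on which of the 2 38wUW plates, C128 (RepM) and C129 (RepN), belongs to which batch. Plates C118 and C119 of batch Replicate1 had 179 and 331 CPM, and plate C114 of Replicate2 had 30.2. Under the first tag Replicate1 sets C118 and C119 against C129 at 27.0 CPM, and Replicate2 sets C114 against C128 at 0.183. Under the alternative tag C128 is set against C118 and C119, and C129 against C114, a pair of nearly equal levels. A read was found in 39 of 145 38w cells and in 3 of 165 38wUW cells. Levels in these 3 cells were 27.7, 1212 and 1446 CPM, against a median of 260 CPM in the 39.

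Basal-like cells were also more frequent in 38w, at 59 of 145 cells (40.7%) against 35 of 165 (21.2%). They were 30 of 70 cells in RepI, 29 of 75 in RepL, 20 of 82 in RepM and 15 of 83 in RepN. Within them, 34 of 59 38w cells had a Serpinb7 read (57.6%, 95% Wilson interval 44.9% to 69.4%) against 2 of 35 38wUW cells (5.71%, interval 1.58% to 18.6%). By replicate, 15 of 30 such cells of RepI and 19 of 29 of RepL had a read, against 0 of 20 of RepM and 2 of 15 of RepN. How many of all genes have shares that separate in this way within the class was not counted. Both 38w replicates thus had higher shares of cells with Serpinb7 inside the basal-like class as well as over all cells. Over all cells, thinned shares did not overlap for 43% of all genes tested. The summed level of the class differed less, at 339 CPM in 38w and 116 CPM in 38wUW, since the 2 positive cells of RepN were both high. By replicate the levels of the class overlapped, with RepI at 122 CPM and RepL at 663, against RepM at 0 and RepN at 188. The 38w cells of this class were deeper, with a median of 78916 reads against 43903, and after each cell was thinned to 20000 reads the counts were 26 of 56 and 2 of 23. On plate C114 alone 11 of 24 basal-like cells had a read, on C118 it was 4 of 6 and on C119 it was 19 of 29, so reads were found on each 38w plate. The level was unlike between them, at 58.0 CPM on C114, 550 on C118 and 663 on C119, and that of C114 was below the 188 CPM of 38wUW plate C129. Without the cells with a suffix the counts were 33 of 53 and 2 of 35. These intervals cover counting error only, and since amplified reads without molecular identifiers are not independent molecules they do not replace the 2 replicates per group.

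**Figure D2:**
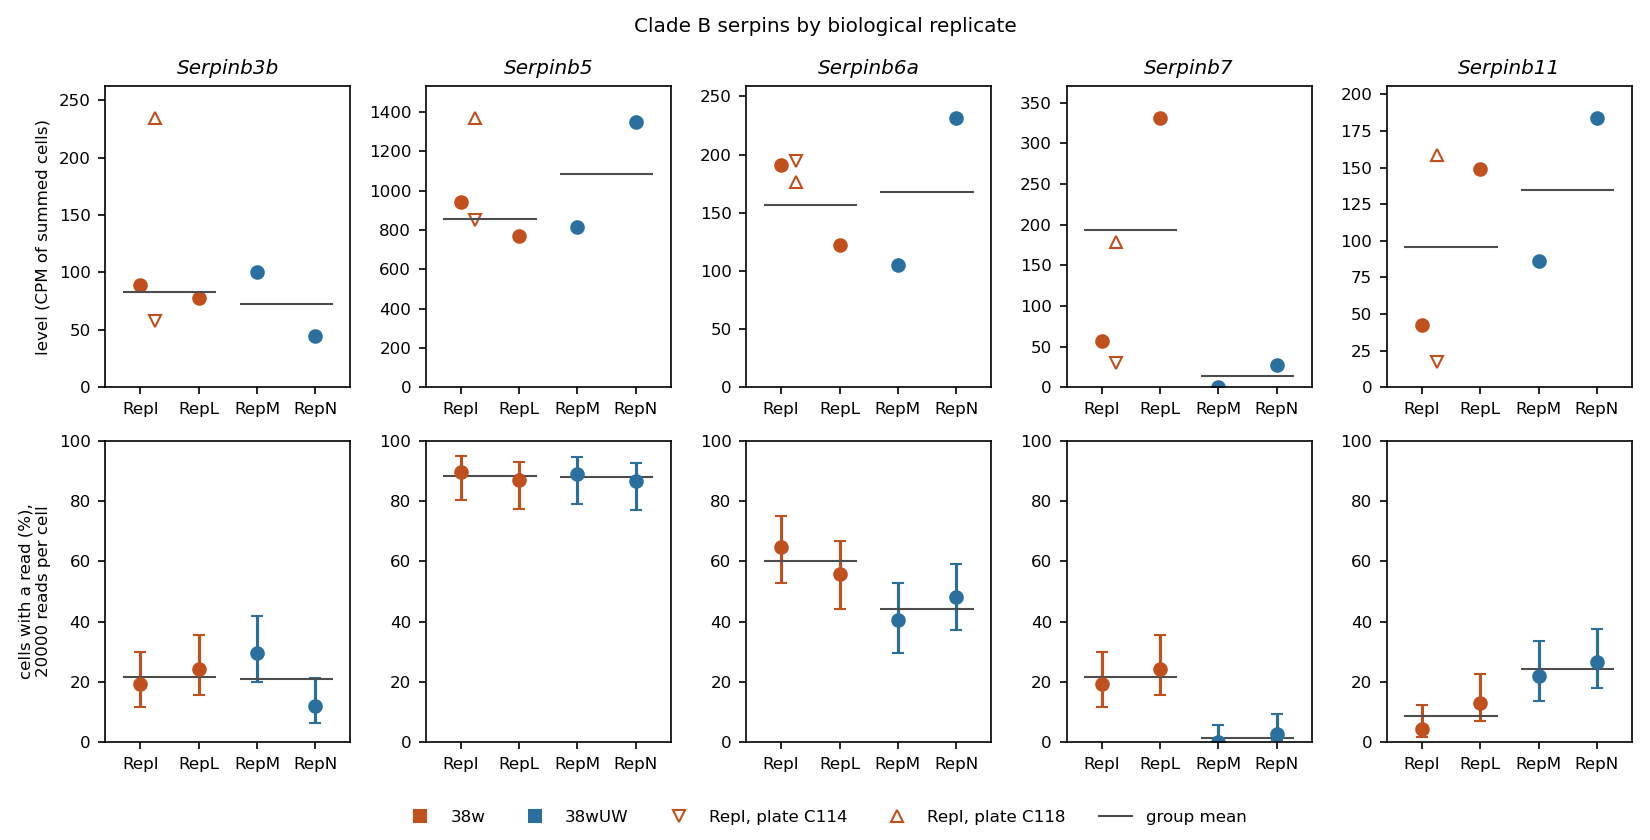
Level in CPM of summed cells (top) and share of cells with a read after thinning to 20000 reads per cell, with 95% Wilson intervals (bottom), for each member in each replicate, coloured by group, with lines at the group means and open triangles for the 2 plates of RepI. Serpinb7 was higher in both 38w replicates on both scales, Serpinb11 had a higher share of cells in both 38wUW replicates while its levels overlapped, and the levels of Serpinb3b, Serpinb5 and Serpinb6a overlapped. Of all genes tested, levels did not overlap for 38.8% and thinned shares for 43%.

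Serpinb11, one of the less studied members of the family, had its highest level in bulge-like cells, the class marked by Cd34, Lgr5 and Postn. It had reads in 35 of these 57 cells (61.4%), and they were 58.3% of all cells with a Serpinb11 read. Bulge-like cells of RepL had 842 CPM, those of RepM 244 and those of RepN 452, a mean of 512 ± 303 CPM (SD, n = 3) against 14.9 ± 7.0 CPM in the other cells of these replicates, a ratio of 34.4. RepI had only 3 bulge-like cells, 1 of them with 273 reads, and did not enter. The edgeR quasi-likelihood test gave an adjusted p of 0.00113, which rose to 0.0619 without RepL.

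Infundibular and duct differentiated-like cells held a second, lower amount of Serpinb11. Reads were found in 16 of 65 of them (24.6%), and the level was 5.86 CPM for RepI, 30.8 for RepL, 46.7 for RepM and 31.1 for RepN. This class passed against the mean of the other classes (edgeR adjusted p = 0.0388). Its level was nonetheless below that of all other cells pooled, 28.6 ± 16.9 against 138 ± 78.4 CPM (SD, n = 4), because these include the bulge-like cells. On the log scale of the test, the classes without a Serpinb11 read lower the mean that this class was set against. The call was lost in 7 of 11 other settings. No Serpinb11 read was found in 55 interfollicular differentiated-like or 33 sebocyte-like cells, which by a limit of 3 counts allows shares of up to 5.45% and 9.09% (Wilson upper limits 6.53% and 10.4%).

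More 38wUW cells carried Serpinb11. After thinning to 20000 reads RepI had reads in 4.41% of cells and RepL in 12.9%, while RepM had them in 21.9% and RepN in 26.7%. Without thinning the shares were 8.57% and 12% in 38w and 23.2% and 31.3% in 38wUW. The groups did not overlap, with a difference of -15.6 percentage points (38w minus 38wUW) and an exact two-sided permutation p of 0.33, the smallest that 6 splits of 4 replicates can give. Thinned shares did not overlap for 43% of all genes tested, so this is common. By plate the unthinned shares were 9.43%, 5.88% and 12% on the 3 38w plates and 23.2% and 31.3% on the 2 38wUW plates, so 38wUW was higher within each batch under either tag. In CPM the groups overlapped, at 42.3 and 149 in 38w and 86.3 and 184 in 38wUW. Bulge-like cells were 13 of 145 38w cells (8.97%) and 44 of 165 38wUW cells (26.7%). Within that class, 8 of 13 and 27 of 44 cells had a Serpinb11 read, 61.5% (95% Wilson interval 35.5% to 82.3%) and 61.4% (interval 46.6% to 74.3%). By replicate it was 1 of 3 cells in RepI and 7 of 10 in RepL, against 10 of 17 in RepM and 17 of 27 in RepN. The 38w side thus rests mostly on RepL, and these intervals cover counting error only. Bulge-like 38wUW cells were deeper, at a median of 100208 reads against 60640, and after thinning the shares were 66.7% in 38w and 57.9% in 38wUW. The summed level of the class was 697 CPM in 38w, again mostly from RepL, and 402 CPM in 38wUW. In infundibular and duct differentiated-like cells 3 of 19 38w and 13 of 46 38wUW cells had a read, 15.8% and 28.3%. The number of bulge-like cells moved with the share of Serpinb11 cells between the groups, and its part in that difference was not tested. In a sorted sample, fewer cells of a type and less RNA per cell are separable only as far as the classes hold.

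**Figure D3:**
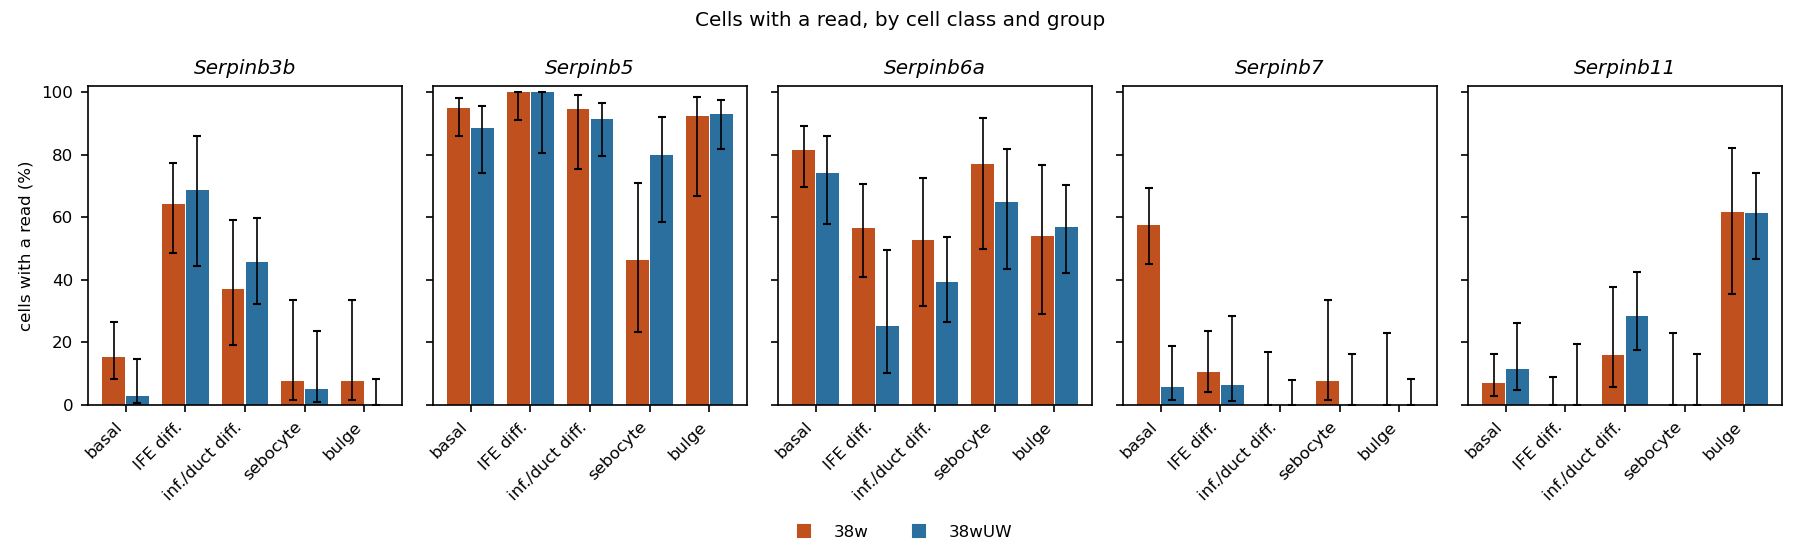
Share of cells with a read of each member (vertical axis, percent), by cell class and group, with 95% Wilson intervals that cover counting error only. In basal-like cells Serpinb7 had reads in 57.6% of 38w and 5.71% of 38wUW cells, while in bulge-like cells Serpinb11 had reads in 61.5% and 61.4%. Of the 13 bulge-like 38w cells, 10 were from RepL.

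Serpinb3b marked the differentiated classes. Reads were found in 36 of 55 interfollicular differentiated-like cells (65.5%), the class of Krt1, Krt10 and Calm4, and in 28 of 65 infundibular and duct differentiated-like cells (43.1%), the class of Krt79, Krt17 and Gata6. In contrast, 10 of 94 basal-like, 2 of 33 sebocyte-like and 1 of 57 bulge-like cells had a read. In interfollicular differentiated-like cells RepI had 252 CPM, RepL 346, RepM 558 and RepN 44.0, a mean of 300 ± 213 CPM (SD, n = 4) against 35.0 ± 16.6 CPM in the other cells. The class was higher than the other cells in 3 of 4 replicates, the exception being RepN with 46.5 CPM in its other cells. RepN was lowest there and highest among infundibular and duct differentiated-like cells, where RepI had 50.6 CPM, RepL 74.5, RepM 142 and RepN 189, above the other cells in 2 of 4 replicates. Both classes passed the edgeR quasi-likelihood test, with adjusted p-values of 0.000282 and 0.00274, and both calls held in all 11 other settings run.

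Between the groups Serpinb3b overlapped, with levels of 88.7 and 78.0 CPM in the 38w replicates and 100.8 and 44.7 CPM in the 38wUW replicates. The 2 plates of RepI differed more than the replicates did, at 57.4 CPM on C114 and 234 CPM on C118. The thinned share of cells was 21.7 ± 3.65% in 38w and 20.8 ± 12.5% in 38wUW (SD, n = 2 each), an exact permutation p of 1. The classes that carry the gene shifted in opposite ways. Interfollicular differentiated-like cells were 26.9% of 38w and 9.70% of 38wUW cells, while infundibular and duct differentiated-like cells were 13.1% and 27.9%. In RepI, RepL, RepM and RepN the former were 20, 19, 9 and 7 cells and the latter 12, 7, 27 and 19. Of the Serpinb3 copies, Serpinb3a had reads in 13 cells, Serpinb3c in 11 and Serpinb3d in 7, with 222, 24.6 and 116 reads in all against 2446 for Serpinb3b.

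Serpinb5 was found in all 5 classes. All 55 interfollicular differentiated-like cells had a read, as did 92.6% of basal-like, 92.3% of infundibular and duct differentiated-like and 93.0% of bulge-like cells, against 66.7% of sebocyte-like cells. Its level was highest in interfollicular differentiated-like cells, at 1730 CPM for RepI, 1204 for RepL, 1959 for RepM and 2748 for RepN, above the other cells in 4 of 4 replicates with means of 1910 ± 642 and 782 ± 243 CPM (SD, n = 4). The next classes in order were bulge-like at 1072 ± 56.4 CPM (SD, n = 3), infundibular and duct differentiated-like at 1011 ± 490 and basal-like at 629 ± 252 (SD, n = 4 each), and these neighbours overlapped. Sebocyte-like cells were lowest at 248 ± 317 CPM. The higher interfollicular and the lower sebocyte-like level passed the edgeR quasi-likelihood test with adjusted p-values of 0.0278 and 0.0205. They were the weakest of the class calls apart from Serpinb11 in infundibular and duct cells, lost in 4 and 5 of 11 other settings, among them without plate C114 (adjusted p = 0.0793 and 0.158).

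Sebocyte-like cells had a Serpinb5 level of 53.5 CPM for RepI, 16.7 for RepL, 219 for RepM and 705 for RepN, from 5 to 13 cells each. Both 38w replicates were below both 38wUW replicates there, on 26 and 7 reads against 76 and 1106. How many of all genes separate in this way within the class was not counted. For sums of all cells, replicate levels did not overlap for 38.8% of all genes tested. Serpinb5 itself overlapped between the groups over all cells, at 944 and 772 CPM in 38w and 814 and 1352 CPM in 38wUW. Its thinned share of cells with a read lay between 86.7% and 89.7% in the 4 replicates.

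Serpinb6a was the other broad member, with reads in 78.7% of basal-like, 69.7% of sebocyte-like, 56.1% of bulge-like, 47.3% of interfollicular differentiated-like and 43.1% of infundibular and duct differentiated-like cells. Basal-like cells had 235 ± 80.1 CPM, against 59.96 ± 49.0 CPM in interfollicular differentiated-like and 47.1 ± 33.0 CPM in infundibular and duct differentiated-like cells (SD, n = 4 each), whereas Serpinb3b was higher in both differentiated classes than in basal-like cells. None of its 5 class tests passed: basal-like cells had an adjusted p of 0.120 and infundibular and duct differentiated-like cells one of 0.128 in edgeR, the latter 0.0465 in DESeq2. The thinned share of cells with a read was 64.7% for RepI, 55.7% for RepL, 40.6% for RepM and 48.0% for RepN. These did not overlap between the groups, as for 43% of all genes tested, a difference of 15.9 percentage points (exact permutation p = 0.33, the smallest possible). Counting cells with at least 5 reads instead, the shares were 55.7% and 30.7% in 38w and 28.0% and 47.0% in 38wUW, which overlapped, and the difference was 5.67 points (exact permutation p = 0.667). By plate the unthinned shares were 73.6% on C114, 70.6% on C118 and 61.3% on C119, against 47.6% on C128 and 60.2% on C129, so the gap within a batch depends on which tag is used. The levels overlapped, at 191 and 122 CPM in 38w and 105 and 231 CPM in 38wUW. RepN had the highest level, and its 27 bulge-like cells held 1865 of its 2993 reads.

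Fitted over all cells of a replicate, no member passed between the groups, and neither did any of the 11760 genes tested (0% called by edgeR's quasi-likelihood test, with an unadjusted p under 0.05 for 949 genes). By DESeq2, 70 of 12703 genes passed (0.551%), none of them a member. For the members the fitted values are a description, since the members were chosen from these counts. Each SE is approximate, taken as the size of the log2 fold change divided by the square root of the test's F statistic. The log2 fold change of 38w over 38wUW was 4.07 ± 1.44 (SE) for Serpinb7 (adjusted p = 0.617 in edgeR), 0.44 ± 0.85 for Serpinb3b, 0.16 ± 0.86 for Serpinb6a, -0.08 ± 0.99 for Serpinb5 and -0.26 ± 0.89 for Serpinb11, with a median of 0.12 over all genes. Without RepI, the replicate with plate C114, Serpinb7 passed (adjusted p = 3.83e-06 in edgeR), as did 1.38% of all genes. RepL is then the only 38w replicate and is assumed to vary as RepM and RepN do. Without RepL, with RepI as the only 38w replicate, the log2 fold change was 2.38 and was not called (adjusted p = 0.0576 in edgeR). Replicate levels that did not overlap between the groups were common, at 38.8% of the genes tested, and Serpinb7 was the only member with such levels. For thinned shares of cells, 43% of genes did not overlap, and Serpinb6a, Serpinb7 and Serpinb11 were 3 of the 5 members that did not.

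**Figure D4:**
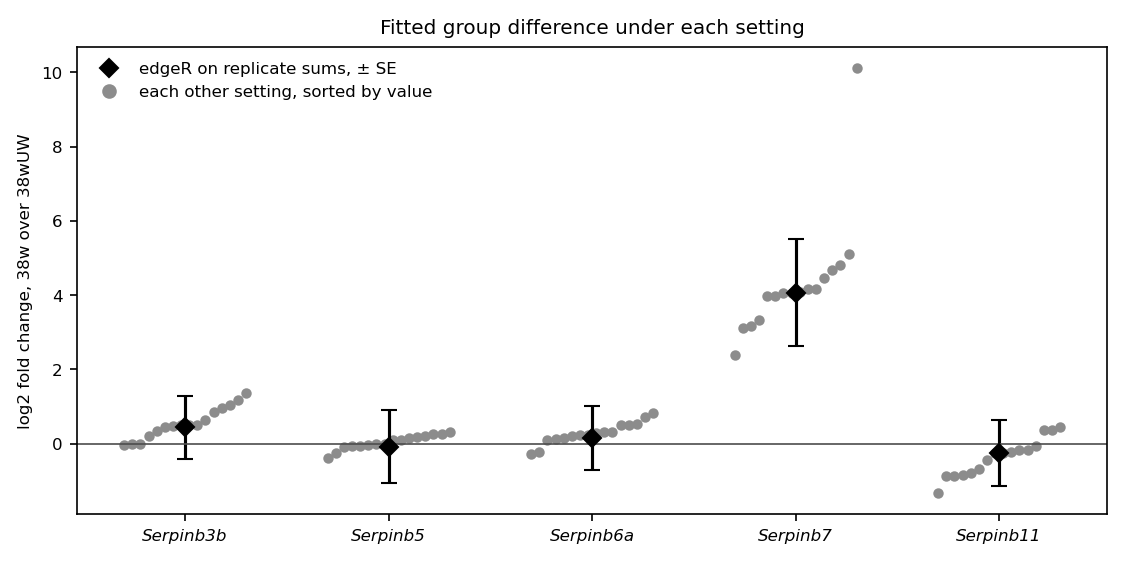
Log2 fold change of 38w over 38wUW (vertical axis) for each member. Diamonds are edgeR fits on replicate sums, with an approximate SE derived from the F statistic. Grey points are the 16 other settings, sorted by value. Serpinb7 stayed above 0 in all 16, from 2.38 to 10.12, while the 4 other members had values on both sides of 0. The settings reuse the same cells, and only for Serpinb7 were both 38w replicates above both 38wUW replicates, so its sign could hardly change.

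No cell had reads of both Serpinb7 and Serpinb11, 12 cells had Serpinb7 with Serpinb3b (28.6% of Serpinb7 cells and 15.6% of Serpinb3b cells), and 6 had Serpinb11 with Serpinb3b (10% and 7.79%). Over all cells the shares with a read were 24.8% for Serpinb3b, 19.4% for Serpinb11 and 13.5% for Serpinb7, and the pairings were not tested. Serpinb5 accompanied all of them, in 75 of 77 Serpinb3b, 41 of 42 Serpinb7 and 55 of 60 Serpinb11 cells, close to its share of 91.3% among all cells. Reads of 2 members were found in 148 of 310 cells, the commonest number, while 61 cells had 1, 81 had 3, 12 had 4, none had all 5 and 8 had none.

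Genes with the most similar pattern over the 310 cells were ranked by Spearman's rho on log values centred within plate, among 6318 genes with reads in at least 20% of cells. Centring can leave plate structure in sparse genes, so rho from ranks taken within each plate is given second. For Serpinb3b they were Elovl4 (rho 0.52 and 0.54), an elongase of very long fatty acids of the barrier, Calm4 (0.51 and 0.52), a skin calmodulin and marker of its class, and Dsg1a (0.51 and 0.51), a desmoglein of the upper layers. For Serpinb5 they were Degs1 (0.47 and 0.47), a ceramide desaturase, Perp (0.46 and 0.45), a desmosomal protein, and Itm2b (0.44 and 0.45). Serpinb7 came closest to Sparc (0.53 and 0.43), a matricellular protein, Ly6a (0.46 and 0.37), also known as Sca-1, and Plek2 (0.46 and 0.30). Serpinb11 came closest to Cgnl1 (0.54 and 0.47), a junction protein, Pdzrn3 (0.52 and 0.40) and Actn1 (0.51 and 0.33), an actin crosslinker. No gene reached 0.4 with Serpinb6a, the nearest being Fth1 at 0.37. These values share cells and depth and are descriptions. Among the members themselves the largest was that of Serpinb3b with Serpinb5, at 0.31 and 0.35.

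Of the other clade B serpins, Serpinb2 was higher and found in more cells than Serpinb11, Serpinb7 or Serpinb3b, and Serpinb8 was found in more cells than these at a lower level. Serpinb2, known as plasminogen activator inhibitor type 2, had reads in 124 cells and 81.1 CPM per kb, Serpinb8 in 111 cells and 11.9, and Serpinb1a, an inhibitor of neutrophil elastase, in 36 cells and 7.39. The 7 others had reads in 4 to 25 cells. Serpinb2 was higher in infundibular and duct differentiated-like cells and lower in sebocyte-like cells (edgeR adjusted p = 0.00905 and 0.0205), and Serpinb1a was higher in infundibular and duct differentiated-like cells (adjusted p = 0.0380). Both were above the other cells in 3 of 4 replicates there, except Serpinb2 in RepI (18.2 against 38.3 CPM) and Serpinb1a in RepM (3.94 against 8.03 CPM). Serpinb2 reached 1090 CPM in RepN, and Serpinb1a had reads in 12 of 65 of these cells. Serpinb12, chosen after its values were seen, had 20 of its 25 positive cells among the interfollicular differentiated-like (edgeR adjusted p = 0.000354). Serpinb3b was less confined, with 36 of its 77 positive cells there and 28 in the infundibular and duct differentiated-like class. Between the groups 0 of the 10 clade B serpins tested passed in edgeR, 2 had an unadjusted p under 0.05 (Serpinb7 and Serpinb2), and their median log2 fold change was -0.17 against 0.12 for all genes. The Serpinb2 levels were 35.2 and 63.1 CPM in 38w and 131 and 315 CPM in 38wUW, which did not overlap, and neither did those of Serpinb8, at 55.0 and 16.7 CPM in 38w and 84.6 and 58.2 CPM in 38wUW, as for 38.8% of all genes tested. Both were higher in 38wUW, where Serpinb7 was lower.

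Of 28 proteases of the classes that clade B serpins can meet in skin, 20 were measured and 19 were tested between the groups. None passed in edgeR, 1 had an unadjusted p under 0.05 (Ctss, from 70 reads in 18 cells), and the median log2 fold change was -0.04, with 9 of 19 above 0. The highest per length were the kallikreins Klk10 at 218 CPM per kb, in 27 cells, and Klk7 at 140 CPM per kb, in 57 cells. Klk10 is one of the markers of the infundibular and duct differentiated-like class.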

How the data were processed

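The authors quantified single-end 75-base reads of each cell with Salmon 0.13.1 against the Ensembl 101 mouse transcriptome (GRCm38) and deposited estimated counts per gene and cell, with no scaling. The study removed cells in which fewer than 1000 genes were detected or mitochondrial reads passed 50%. All 310 cells were used, and doublets were not called. Counts were rounded, summed per replicate (and per replicate and class of at least 5 cells) and tested with edgeR 4.0.16 (TMM, filterByExpr, quasi-likelihood, Benjamini-Hochberg at 0.05) in R 4.3.3, with DESeq2 1.42.0 as an alternative. The fit was also run on simulated counts with the same dispersion for all genes and no plate effect. That run therefore does not cover plate differences such as that of C114. Classes came from mean z-scores of fixed markers on log values per 10000 reads, without 95 mitochondrial and ribosomal protein genes. For shares, cells were thinned to 20000 reads, which 277 cells reach. The animals behind each replicate are not given in the labels, and p-values measure the spread between these replicates only. Sequences, lengths and positions came from GENCODE M21 transcripts of GRCm38. The members and lists were chosen with earlier results of these data known. Named genes were the members, clade B serpins in at least 10% of cells, up to 3 genes most like each member at a rho of 0.4 or more, and the 2 proteases highest per length. Other settings are given in the closing section.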

Additional observations from a re-analysis of the deposited data

Results flagged for a closer look

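Serpinb3b in infundibular and duct differentiated-like cells went opposite ways in the groups when set against the other cells of the same replicate. Its level in the class minus that in the other cells was -45.3 CPM for RepI, -5.15 CPM for RepL, 59.6 CPM for RepM and 182 CPM for RepN, and the 38w mean lay below the 38wUW mean, at a difference of -146 CPM. The difference between the groups was not tested. It rests on 12, 7, 27 and 19 cells, with reads of the gene in 5, 2, 13 and 8 of them, and the other cells hold more interfollicular differentiated-like cells in 38w. Groups of 2 replicates are too small to look for outlying samples.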

How the results depend on the processing

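The count of genes that differed between the groups moved from 0 to 70 with DESeq2, 1 with no low-count filter, 1 and 4 with the batch tag or its alternative as a replicate block over plates, and to between 0 and 1215 when a single replicate was dropped, at 169 in the absence of RepI and 1215 in that of RepL. The count of members called stayed at 0 except without RepI, where it was 1 (range 0 to 1). The replicate block gave Serpinb7 a log2 fold change of 4.67 and the alternative tag 5.12, neither called, and reversed Serpinb5 to 0.17 and 0.27. Serpinb5 was also reversed with equal weight per cell (0.10), thinned cells (0.10), RepI from plate C118 only (0.25) and plates as units without the block (0.19, added after seeing the data), and without single replicates it spanned -0.38 to 0.31. Serpinb3b was reversed to -0.016 with equal weight and -0.0023 with thinned cells, and to -0.041 without RepN (to 1.17 without RepM). Serpinb6a was reversed without RepI (-0.22) and RepM (-0.28), up to 0.82 without RepN. Serpinb11 was reversed with RepI from plate C118 only (0.45) and without RepI or RepN (0.38 each), down to -1.33 without RepL. Serpinb7 kept its direction in all 16 settings, with adjusted p-values from 3.83e-06 to 0.9997. The 7 member and class tests called became 12 with DESeq2, 4 without plate C114 and 3 to 6 with a single replicate dropped, and none of the 7 reversed. The share of cells changed direction for Serpinb3b without RepL (-1.73 percentage points) and RepN (-7.99; up to 9.70 without RepM), and for Serpinb5 without plate C114 (-0.18), RepI (-0.72) and RepN (-0.64; up to 1.84 without RepL). The cause of these shifts was not tested. With 2 replicates a group and RepI split over 2 unlike plates, plate and group cannot be told apart.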
